A study of Mus musculus with 2 samples.

Results

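The 10 genes described here encode the 3 transforming growth factor-β (TGF-β) ligands (Tgfb1, Tgfb2 and Tgfb3), the 3 receptors that bind them (Tgfbr1, Tgfbr2 and Tgfbr3) and the 4 latent TGF-β-binding proteins (Ltbp1, Ltbp2, Ltbp3 and Ltbp4). They were chosen by name and matched by Ensembl identifier among the 30406 genes that both matrices list, and all 10 had unique molecular identifiers (UMIs, the counted mRNA molecules) in both libraries. The data are 2 single-cell RNA-seq libraries of mouse liver cells. The first group was healthy, and the other had chronic injury by the hepatotoxin carbon tetrachloride (CCl4), which induces liver fibrosis. Both groups were Col1a2CreER:Rosa26tdTomato mice, which carry a tamoxifen-inducible Cre under the collagen Col1a2 promoter and a Cre-dependent red reporter, on a C57BL/6 background. Mice of this line entered the study at 8 to 10 weeks of age, and the CCl4 group received 2.5 μL per g of 10% CCl4 in corn oil by intraperitoneal injection, 2 times per week for 12 weeks. The number of mice behind each library, and the age of the healthy mice at isolation, are not given in the sources used here. The labels call the samples whole liver cells and the methods describe CD45-negative sorting. Ptprc, which encodes CD45, had a UMI in 0.286% of healthy and 6.07% of CCl4 cells.

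TGF-β ligands are secreted in a latent form, folded together with their own propeptide and often linked by disulfide bonds to a latent-binding protein that tethers the complex to the extracellular matrix. Integrins, thrombospondin-1 or proteases release the active ligand, which assembles the type II receptor with the type I receptor, and the type I receptor phosphorylates Smad2 and Smad3. In the liver, TGF-β signaling is known as a strong driver of collagen production by activated hepatic stellate cells.

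Quality filters left 5602 cells of the healthy library, with 6783.5 UMIs in the median cell, and 7314 of the CCl4 library, with 11876. They formed 27 clusters, of which 18 could be named from marker genes. The clustering left out the 10 genes and the pathway genes. None of the 10 genes was a naming marker, but the pathway gene Col1a1 was among the markers that named the mesenchymal-like class. In the healthy library, 3549 cells were endothelial-like, 1263 cholangiocyte-like (bile duct epithelium), 325 hepatocyte-like and 235 mesothelial-like (the lining of the liver surface), and 11 were mesenchymal-like. In the CCl4 library, 2888 cells were mesenchymal-like, 926 mesothelial-like and 644 endothelial-like, and 490 belonged to 5 immune classes. None was named hepatocyte-like, although the labels call the samples whole liver cells. A cluster with 330 CCl4 and 2 healthy cells had 12 of 15 hepatocyte markers enriched but a median of 898.5 UMIs and no such marker among its leading genes, so it stayed unnamed. The 9 unnamed clusters, with 3.43% of healthy and 31.9% of CCl4 cells, were left so mostly because of few UMIs or few markers. Both libraries held 10 identical cell barcodes, 8 of them among kept cells.

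Levels are given as CPM, that is UMIs of the gene per 1000000 UMIs summed over a class in 1 library, each with its exact 95% Poisson interval. There was 1 library per group, so no difference was tested, and the intervals cover counting error only. Classes were ranked in a library only where it held at least 50 of their cells, and smaller classes are given where named. A gene was counted as higher or lower in a comparison when the CPM ratio was at least 2-fold and its 95% interval lay beyond 1.

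The promoters of 3 members with different patterns are printed here: Tgfb1, highest in endothelial-like cells among classes with at least 50 cells, Tgfb2, highest in mesothelial-like cells among the same classes, and Ltbp2, close to absent from the healthy library. Each is the 100 bases before the annotated start in RefSeq GRCm38.p6, written 5′ to 3′ on the strand of the gene, with matches to the TATA box (TATAAA or TTTATA) and the GC box (GGGCGG or CCGCCC) in capitals.
Tgfb1: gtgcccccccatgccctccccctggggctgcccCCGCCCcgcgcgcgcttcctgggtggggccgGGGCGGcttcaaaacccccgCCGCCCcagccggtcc
Tgfb2: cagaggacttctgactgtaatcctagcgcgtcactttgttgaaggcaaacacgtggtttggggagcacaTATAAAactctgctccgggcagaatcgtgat
Ltbp2: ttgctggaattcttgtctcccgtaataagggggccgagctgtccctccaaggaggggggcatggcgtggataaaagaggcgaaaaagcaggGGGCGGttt
The Tgfb1 stretch (chr7:25686902-25687001, plus strand) holds 3 GC boxes and no TATA box, whereas the Tgfb2 stretch (chr1:186705990-186706089, minus strand) holds a TATA box that begins 31 bases before the start and no GC box. The Ltbp2 stretch (chr12:84876492-84876591, minus strand) holds 1 GC box. Of 32851 mouse promoters of the same length, 5.56% hold a TATA box and 24.7% a GC box by these letters. A match describes the sequence and does not show that a factor binds there.

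Tgfb1, the ligand most often linked to fibrosis, was counted mainly in endothelial-like cells of the healthy library. Its level there was 256 CPM (249 to 264), against 11.2 CPM (8.09 to 15.1) in mesothelial-like, 8.69 CPM (5.56 to 12.9) in hepatocyte-like and 5.47 CPM (4.44 to 6.66) in cholangiocyte-like cells. The 13 healthy macrophage and monocyte-like cells had 286 CPM (206 to 387), from 42 UMIs, which did not differ from endothelial-like cells beyond counting error. The healthy library held few immune cells, with a Ptprc UMI in 0.286% of cells. Its 4 T and NK cell-like cells had 296 CPM of Tgfb1 (162 to 496), from 14 UMIs. Endothelial-like cells, which made up 63.4% of the kept healthy cells, held 94.9% of the healthy library's 5437 Tgfb1 UMIs. A Tgfb1 UMI was present in 65.6% of endothelial-like cells (median 5892 UMIs per cell) and in 6.15% of hepatocyte-like cells (median 2908 UMIs), and at an even depth of 2000 UMIs per cell the shares were 39.3% and 3.63%. Cells with fewer UMIs than that were left out of all thinned shares, here 577 of 3549 endothelial-like and 125 of 325 hepatocyte-like cells. Of the 24 Tgfb1 UMIs in hepatocyte-like cells, carried-over endothelial RNA could account for 11.7 by the estimate given with the carried-over values. The count lay above that estimate beyond counting error, and how much of the hepatocyte-like share is expression was not tested. In the CCl4 library the highest Tgfb1 level among classes with at least 50 cells was in endothelial-like cells, at 361 CPM (343 to 379). Macrophage and monocyte-like cells followed at 223 CPM (195 to 253) and plasmacytoid dendritic-like cells at 177 CPM (137 to 225), and these 2 classes did not differ beyond counting error. Neutrophil-like, B and plasma cell-like and T and NK cell-like cells lay at 91.9, 74.1 and 68.0 CPM. The 2888 mesenchymal-like cells had a lower level, 44.5 CPM (42.5 to 46.5), but as the largest class they held 37.5% of the Tgfb1 UMIs, more than the 31.2% of endothelial-like cells. Unnamed cells held a further 19.2%, and how these would divide between the classes was not determined.

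Tgfb2 and Tgfb3 had a different distribution, with mesothelial-like and cholangiocyte-like cells ahead of the other healthy classes with at least 50 cells. Tgfb2 was at 304 CPM (287 to 322) in healthy mesothelial-like cells, 114 CPM (109 to 119) in cholangiocyte-like, 12.8 CPM (11.3 to 14.4) in endothelial-like and 0.724 CPM (0.0877 to 2.61) in hepatocyte-like cells. Because cholangiocyte-like cells were more numerous, they held 58.1% of the Tgfb2 UMIs and mesothelial-like cells 33.2%. Tgfb3 followed the same order at the top, with 128 CPM (117 to 140) in mesothelial-like and 21.5 CPM (19.4 to 23.8) in cholangiocyte-like cells, and was at 1.94 CPM in endothelial-like and 1.09 CPM in hepatocyte-like cells, which did not differ beyond counting error. After CCl4, mesothelial-like cells had 89.3 CPM of Tgfb2 (84.7 to 94.1) and mesenchymal-like cells 66.0 CPM (63.6 to 68.5). For Tgfb3 these levels were 67.1 CPM (63.1 to 71.2) and 52.6 CPM (50.4 to 54.8). The 5 immune classes stayed at or below 8.72 CPM of Tgfb2 and 10.3 CPM of Tgfb3.

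A cluster of 18 smooth muscle-like cells, 8 healthy and 10 CCl4, was too small to rank among the classes but held the highest Tgfb2 and Tgfb3 levels of the CCl4 library. Its 10 CCl4 cells had 155 Tgfb2 UMIs, present in 8 of the 10 cells with a median of 11.5 and a range of 0 to 38 per cell, or 1511 CPM (1283 to 1769). All 10 cells had Tgfb3 UMIs, from 2 to 17 per cell, or 887 CPM (714 to 1089). The 8 healthy cells had 4 UMIs of each ligand (60.3 CPM, 16.4 to 154). Ltbp1 was distributed the other way in this cluster, with 21 UMIs in 7 of the 8 healthy cells (316 CPM, 196 to 484) and 3 UMIs in the 10 CCl4 cells. With so few cells from 1 library each, these values describe individual cells rather than the groups.

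**Figure D1:**
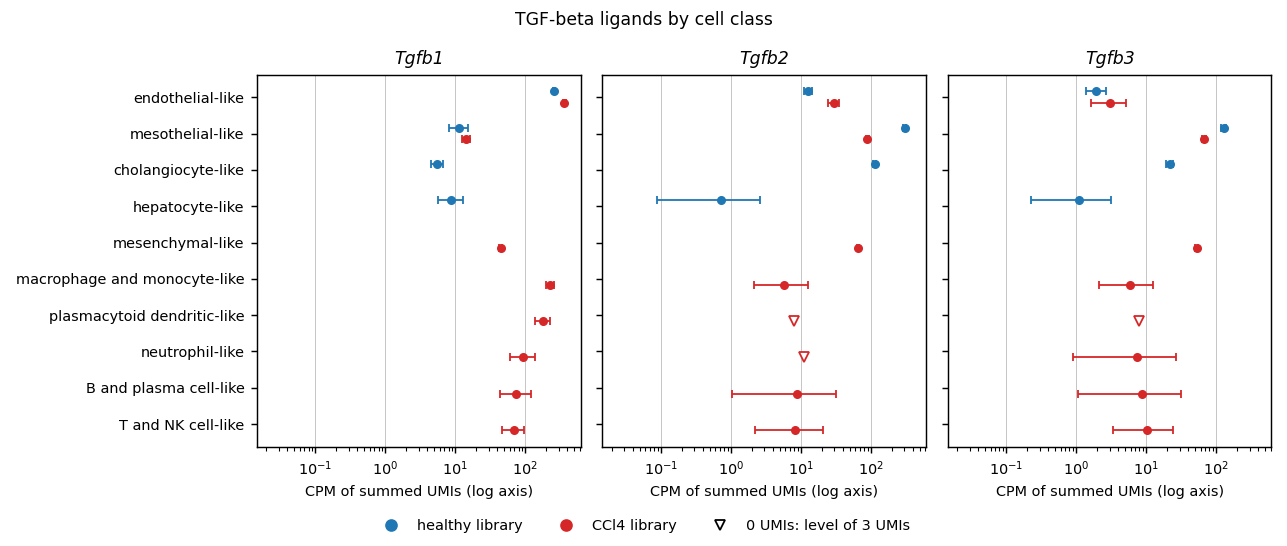
Levels of the 3 ligands (CPM of summed UMIs, log axis) in each class with at least 50 cells in the healthy (blue) and CCl4 (red) library, with exact 95% Poisson intervals; open triangles mark classes with 0 UMIs, drawn at the level of 3 UMIs. Among the classes drawn, Tgfb1 is highest in endothelial-like cells of both libraries, at 256 and 361 CPM, while Tgfb2 and Tgfb3 are highest in mesothelial-like cells.

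Among the receptors, Tgfbr2, the type II receptor that binds the ligand first, was at 233 CPM (226 to 239) in healthy endothelial-like and 190 CPM (176 to 204) in mesothelial-like cells. It was at 17.0 CPM (15.2 to 19.0) in cholangiocyte-like and 7.60 CPM (4.70 to 11.6) in hepatocyte-like cells. The CCl4 library held too few cholangiocyte-like or hepatocyte-like cells to rank, and its 23 cholangiocyte-like cells had Tgfbr2 at 14.6 CPM (3.02 to 42.8). Among its ranked classes the highest levels were 131 CPM (120 to 142) in endothelial-like and 126 CPM in B and plasma cell-like cells. Macrophage and monocyte-like cells followed at 111 CPM, mesenchymal-like cells at 102 CPM and T and NK cell-like cells at 94.8 CPM. No 2 neighbours in that order differed beyond counting error. The lowest CCl4 class with at least 50 cells was neutrophil-like, at 58.8 CPM (33.6 to 95.5).

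Tgfbr1, the type I receptor kinase, was counted at low levels in the 4 healthy classes with at least 50 cells, from 25.3 CPM (23.1 to 27.6) in endothelial-like cells to 7.96 CPM (4.99 to 12.1) in hepatocyte-like cells. Cholangiocyte-like and mesothelial-like cells lay between them at 18.1 and 16.4 CPM and did not differ beyond counting error. Smaller healthy classes reached 57.0 CPM (18.5 to 133), from 5 UMIs in 11 mesenchymal-like cells. The highest CCl4 values were in plasmacytoid dendritic-like cells, at 97.7 CPM (68.8 to 135), and in macrophage and monocyte-like cells, at 78.7 CPM (62.5 to 97.8), again without a difference beyond counting error. Mesenchymal-like cells followed at 47.8 CPM (45.7 to 49.9), and endothelial-like and mesothelial-like cells were at 20.5 and 19.8 CPM.

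Tgfbr3, or betaglycan, the co-receptor that presents TGF-β2 in particular to the type II receptor, was higher in endothelial-like and mesothelial-like cells than in the other healthy classes with at least 50 cells. It was at 158 CPM (153 to 164) in healthy endothelial-like and 89.5 CPM (80.3 to 99.4) in mesothelial-like cells, against 5.13 CPM in cholangiocyte-like and 2.90 CPM in hepatocyte-like cells. The 11 healthy mesenchymal-like cells, too few to rank, had Tgfbr3 at 205 CPM (122 to 324), from 18 UMIs. The CCl4 library had Tgfbr3 at 172 CPM (160 to 185) in endothelial-like, 152 CPM (146 to 159) in mesothelial-like and 115 CPM (111 to 118) in mesenchymal-like cells. The 5 immune classes, which had Tgfbr2 at 58.8 to 126 CPM, had Tgfbr3 at 4.36 to 22.7 CPM.

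**Figure D2:**
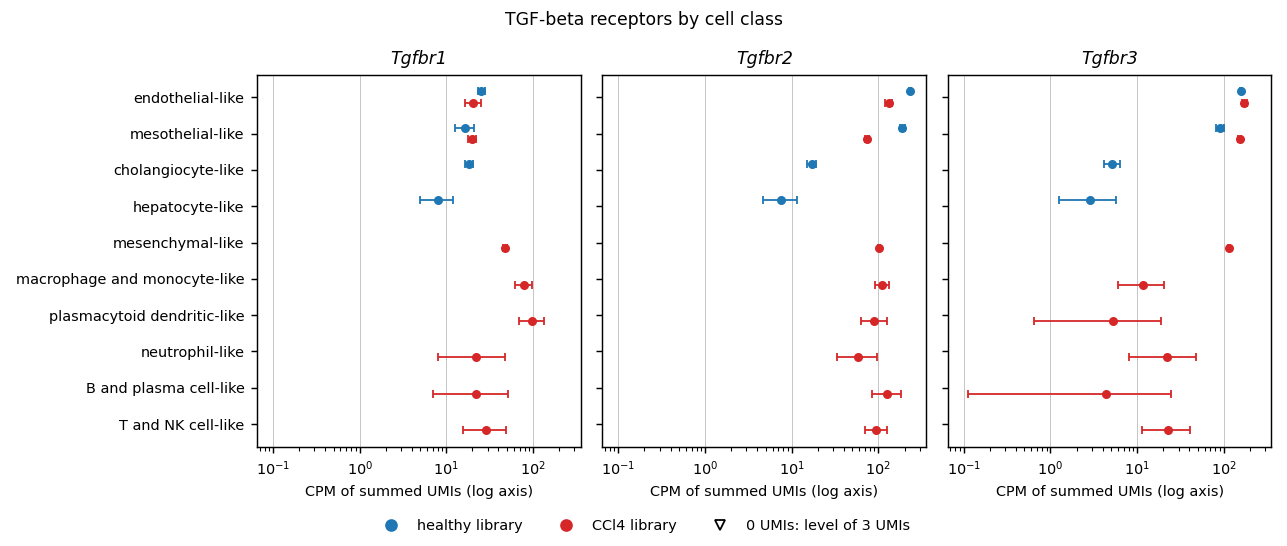
Levels of the 3 receptors (CPM of summed UMIs, log axis) in each class with at least 50 cells in the healthy (blue) and CCl4 (red) library, with exact 95% Poisson intervals. Tgfbr2 spans 58.8 to 131 CPM over the CCl4 classes, whereas Tgfbr3 lies at 115 to 172 CPM in endothelial-like, mesothelial-like and mesenchymal-like cells and at 22.7 CPM or less in the immune classes.

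Ltbp1 and Ltbp3 were highest in mesothelial-like cells among healthy classes with at least 50 cells. Ltbp1, which binds the latent complex of all 3 ligands, was at 287 CPM (270 to 305) there, beside 148 CPM (78.9 to 253) in the 11 mesenchymal-like cells, against 1.74 CPM (1.21 to 2.42) in endothelial-like, 0.362 CPM in hepatocyte-like and 0.279 CPM in cholangiocyte-like cells. The 235 mesothelial-like cells held 93.1% of the healthy Ltbp1 UMIs, and a UMI was present in 88.9% of them (median 18285 UMIs per cell; 40.7% after thinning) and in 0.396% of cholangiocyte-like cells (median 11691 UMIs; 0.0521% after thinning). Ltbp3 was at 221 CPM (206 to 236) in mesothelial-like, 41.0 CPM (38.1 to 44.1) in cholangiocyte-like, 3.48 CPM in endothelial-like and 1.81 CPM in hepatocyte-like cells. Ltbp4 was shared by mesothelial-like cells, at 790 CPM (762 to 818), and endothelial-like cells, at 761 CPM (749 to 773), which did not differ beyond counting error, and was at 21.4 CPM in cholangiocyte-like and 19.9 CPM in hepatocyte-like cells. The 11 mesenchymal-like cells had Ltbp4 at 444 CPM (316 to 607).

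Ltbp2, which associates with elastic fibres and, unlike the other 3, is not known to bind latent TGF-β itself, was close to absent from the healthy library and abundant in the CCl4 library. Over all barcodes, the healthy library had 10 Ltbp2 UMIs and the CCl4 library 28784. The mesenchymal-like class, which held 71.8% of the CCl4 Ltbp2 UMIs, had 11 healthy and 2888 CCl4 cells. The library totals therefore compare different sets of cells. Of the 8 UMIs that fell in kept healthy cells, 6 were in cholangiocyte-like cells and 2 in the 11 mesenchymal-like cells, or 22.8 CPM (2.76 to 82.3) in the latter. No UMI was found in the 235 mesothelial-like cells, where 3 counts would be 0.780 CPM, or in the 3549 endothelial-like cells. CCl4 cells had Ltbp2 at 447 CPM (441 to 454) in mesenchymal-like and 271 CPM (263 to 279) in mesothelial-like cells, which together held 88.3% of its UMIs in kept cells. T and NK cell-like cells followed at 59.8 CPM (40.0 to 85.8), and the other classes with at least 50 cells lay between 10.6 and 22.3 CPM. Ltbp1 was likewise highest in mesenchymal-like cells of the CCl4 library, at 113 CPM (110 to 117), followed by mesothelial-like cells at 68.8 CPM (64.8 to 73.0). Ltbp3 was at 161 CPM (154 to 167) in mesothelial-like and 83.5 CPM (80.8 to 86.3) in mesenchymal-like cells. Ltbp4 was at 259 CPM (244 to 275) in endothelial-like, 224 CPM (217 to 231) in mesothelial-like and 201 CPM (197 to 206) in mesenchymal-like cells.

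**Figure D3:**
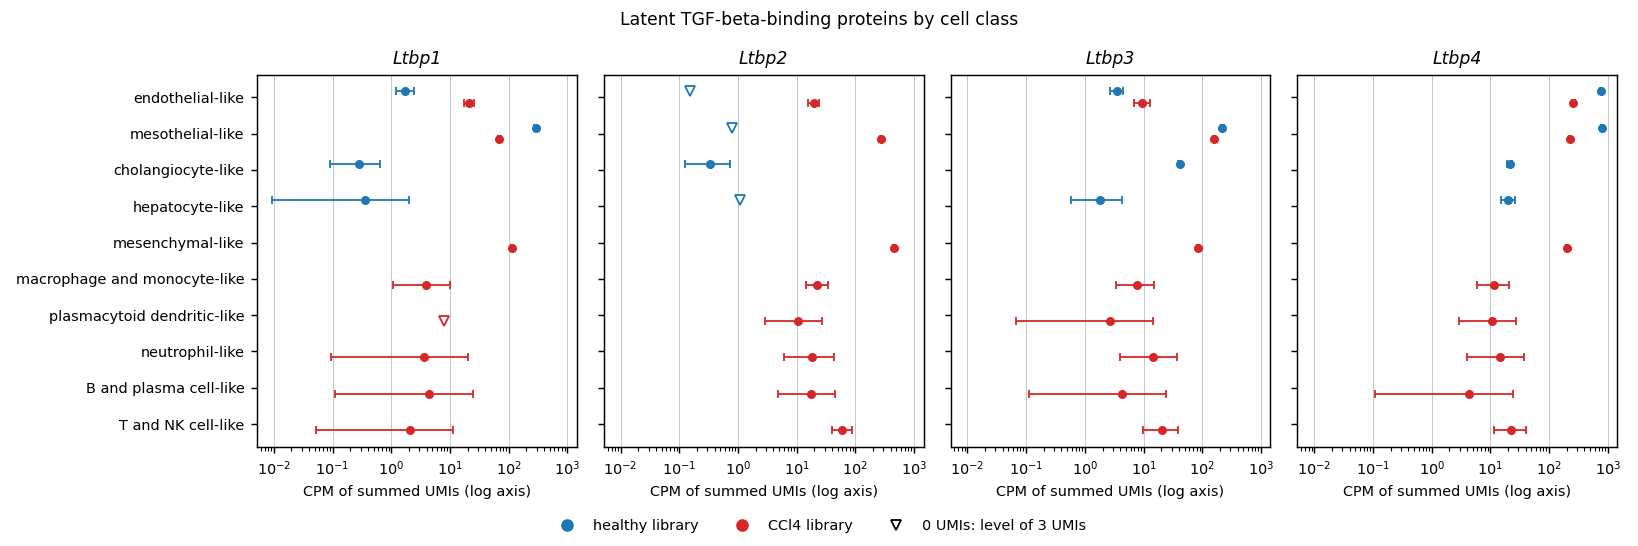
Levels of the 4 latent-binding proteins (CPM of summed UMIs, log axis) in each class with at least 50 cells in the healthy (blue) and CCl4 (red) library, with exact 95% Poisson intervals; open triangles mark classes with 0 UMIs, drawn at the level of 3 UMIs. Ltbp2 is at 0 UMIs in healthy mesothelial-like and endothelial-like cells and at 447 and 271 CPM in mesenchymal-like and mesothelial-like cells of the CCl4 library.

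Counted by the class with the highest level among those with at least 50 cells, 4 of the 9 members with at least 10 UMIs in the healthy classes were highest in endothelial-like cells (Tgfb1 and the 3 receptors), beside 36.2% of all genes tested, and 5 in mesothelial-like cells (Tgfb2, Tgfb3, Ltbp1, Ltbp3 and Ltbp4), beside 17.8% of all genes. In the CCl4 library, 4 of 10 were highest in endothelial-like cells (Tgfb1, Tgfbr2, Tgfbr3 and Ltbp4; 18.7% of all genes), 3 in mesothelial-like cells (Tgfb2, Tgfb3 and Ltbp3; 17.2%), 2 in mesenchymal-like cells (Ltbp1 and Ltbp2; 15.8%) and 1 in plasmacytoid dendritic-like cells (Tgfbr1; 12.7%). None was highest in healthy hepatocyte-like (12.5% of all genes) or cholangiocyte-like cells (33.4%), or in neutrophil-like (8.77%), T and NK cell-like (9.58%), B and plasma cell-like (9.13%) or macrophage and monocyte-like cells (8.16%) of the CCl4 library. Tgfb1, Tgfb2, Tgfb3, Tgfbr2, Tgfbr3 and Ltbp3 had the same leading class in both libraries, although the libraries ranked different sets of classes. The CCl4 lead of Tgfbr2 over B and plasma cell-like cells was within counting error. The share of all genes with the same leading class was not computed, so the match is a description.

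RNA carried over between droplets was estimated beside the low values. In the healthy library, where 96.1% of cells had a UMI of the hepatocyte gene Alb, sinusoidal endothelial markers were found in cholangiocyte-like, hepatocyte-like and mesothelial-like cells at 0.469% to 1.65% of their endothelial-like level. By that scale the hepatocyte-like values of Tgfb1, Tgfbr2, Tgfbr3 and Ltbp4 were 2.06, 1.99, 1.11 and 1.59 times what endothelial RNA could carry. Those of Tgfb1, Tgfbr2 and Ltbp4 lay above it beyond counting error, and that of Tgfbr3 did not. In the CCl4 library the collagen transcripts Col1a1, Col1a2 and Col3a1 were found in the 7 classes other than mesenchymal-like at 2.46% to 9.59% of their mesenchymal-like level. Scaled by these shares, the amount of each member that mesenchymal-like RNA could carry was exceeded in all 7 classes for Tgfb1, Tgfbr1 and Tgfbr2. It was exceeded in 5 of 7 classes for Tgfbr3 and Ltbp3, and in 2 of 7 for each of Tgfb2, Tgfb3, Ltbp1, Ltbp2 and Ltbp4. For Ltbp2 the exceptions were mesothelial-like cells, at 6.32 times the estimate, and T and NK cell-like cells, at 1.49 times, while the 19.4 CPM of endothelial-like cells was 0.929 times the estimate of 20.9 CPM.

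Mesothelial-like cells could be compared between the libraries with 235 healthy and 926 CCl4 cells, and all 10 mesothelial markers were enriched in the cluster that held each set. All but 1 of the cells clustered by library, the healthy cluster with Slc26a3 and Myl7 and the CCl4 one with Adra2a, Cemip and Tm4sf5 among their leading genes. Of the 10 members, 1 was higher and 4 were lower in the CCl4 cells, where 10.9% of 13379 genes tested were higher and 12.5% lower. Over all genes the median log2 ratio was -0.04, and over the members it was -0.70. Ltbp2 was the higher one, at 271 against 0 CPM, or at least 347-fold with the healthy level set to 3 counts over the class. Of the 1470 genes at 100 CPM or more in CCl4 mesothelial-like cells, only Ltbp2 and Pnoc, a neuropeptide precursor chosen here after its values were seen, were at 0 UMIs in the healthy ones. The other latent-binding proteins were below the healthy level. Ltbp1 was at 0.240 of the healthy CPM (95% interval 0.220 to 0.261), Ltbp4 at 0.284 (0.270 to 0.298) and Ltbp3, which did not reach 2-fold, at 0.727 (0.672 to 0.786). Tgfb2 was at 0.294 of the healthy CPM (0.272 to 0.318) and Tgfbr2 at 0.390 (0.355 to 0.428), a call that narrowly failed when cells needed at least 1000 UMIs (log2 ratio -0.99 in place of -1.36). In that setting 1570 CCl4 cells were mesothelial-like in place of 926, so the class was not made of the same cells. The remaining members stayed within 2-fold, with Tgfb3 at 0.523 (0.470 to 0.583), Tgfbr3 at 1.70 (1.52 to 1.91), Tgfb1 at 1.28 (0.919 to 1.81) and Tgfbr1 at 1.21 (0.922 to 1.61). Tgfb3 stayed uncalled in 10 of 11 settings planned, with a log2 ratio of -1.56 at the lowest. The 2 matrices were made with different Cell Ranger versions and gene lists, which cannot be told apart from the groups.

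Of 33 other pathway genes tested in mesothelial-like cells, 7 were higher and 2 lower in the CCl4 library, with a median log2 ratio of 0.07. Among genes of the latent complex and its activation, Thbs1, which encodes thrombospondin-1, was at 424 against 5.46 CPM (77.7-fold, 50.8 to 126), and Itgb8, the β8 integrin chain, at 18.8 against 3.64 CPM (5.17-fold, 3.03 to 9.58). Fbn2, or fibrillin-2, was at 2.21 against 0 CPM. Itgb3, the β3 integrin chain, was lower at 0.153 of the healthy CPM (0.114 to 0.203), and Furin, the protease that cleaves the propeptide, at 0.470 (0.393 to 0.565). Of the genes known to be induced by TGF-β, those higher included Tgfbi at 35.1 against 0.260 CPM (1 healthy UMI; 135-fold, 24.1 to 5337), Fn1 at 157 against 5.20 CPM (30.1-fold) and Col1a1 at 414 against 133 CPM (3.11-fold). Collagen transcripts of CCl4 mesothelial-like cells stood at 9.59% of their mesenchymal-like level, and the part of carried-over RNA in the Col1a1 value was not tested. None of the 9 Smads and their regulators was called.

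Endothelial-like cells were compared with 3549 healthy and 644 CCl4 cells, but different clusters held them. Of the healthy cells, 1579 fell in a cluster led by Wnt2, Slc18a2 and Kit, with 3 central-vein and 2 portal sinusoidal markers enriched. A further 1015 fell in a cluster led by Msr1 and Ntn4, with 3 portal and no central-vein markers enriched. Neither cluster held any CCl4 cell. A low-UMI cluster, with a median of 1363 UMIs, held 553 healthy and 6 CCl4 cells. It had 17 of 19 endothelial and 6 hepatocyte markers enriched, and kept its name through 1 endothelial marker among its leading genes. Of the CCl4 cells, 594 fell in a cluster led by Ccl21a, Esm1 and Mmrn1 that held 31 healthy cells. Over the whole class, 4 of 10 members were higher and 1 lower in the CCl4 library, where 6.84% of 13297 genes were higher and 14.9% lower, and the median log2 ratio of all genes was -0.28. Ltbp1 was at 21.2 against 1.74 CPM (12.2-fold, 8.19 to 18.6), Ltbp3 at 9.57 against 3.48 CPM (2.75-fold, 1.82 to 4.10) and Tgfb2 at 29.4 against 12.8 CPM (2.30-fold, 1.85 to 2.86). Of the 91 Ltbp1 UMIs of the CCl4 cells, 45 were in a cluster led by Nts, with 17 CCl4 cells. The Tgfb2 call held in 8 of 11 settings planned, with a log2 ratio of 0.93 at the lowest, and the Ltbp3 call in 10 of 11. Ltbp2 was at 19.4 against 0 CPM, beside the carried-over estimate of 20.9 CPM given above. Ltbp4 was lower, at 259 against 761 CPM (0.341, 0.320 to 0.362), and Tgfbr2 was at 0.563 (0.515 to 0.615) and Tgfb1 at 1.41 (1.33 to 1.49) of the healthy CPM, both within 2-fold.

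Within single endothelial-like clusters, several of these ratios were different or lay on the other side of 1. In the cluster led by Ccl21a, no member was higher and 5 were lower in the CCl4 cells (3.12% of 10603 genes were higher and 9.68% lower): Tgfb2 was at 0.193 (0.0956 to 0.443), Tgfb3 at 0.0374 (0.0145 to 0.101), Tgfbr2 at 0.238 (0.180 to 0.321), Ltbp1 at 0.118 (0.0582 to 0.264) and Ltbp4 at 0.212 (0.175 to 0.257) of the level in 31 healthy cells. These cells had a median of 1542 UMIs, and their Tgfb2 and Tgfb3 levels each rest on 9 UMIs in 2 of the 31 cells. In the cluster led by Nts, Wnt9b and Tnni3, with 171 healthy and 17 CCl4 cells, Ltbp1 was at 250 against 9.27 CPM (27.0-fold, 14.0 to 56.0), and was the only one of 8 members called, beside 4.88% of 9474 genes called higher and 6.59% called lower. Tgfb2 was at 345 against 175 CPM there (1.97-fold, 1.46 to 2.61) and Tgfb1 at 345 against 180 CPM (1.91-fold, 1.42 to 2.54). This cluster had the highest Tgfb2 level of the endothelial-like clusters in both libraries, while the healthy sinusoidal clusters had 0.980 and 0.707 CPM. Without this cluster the log2 ratio of Tgfb2 over the class was 3.29 in place of 1.20. In the cluster led by Cytl1 and Gja5, with large-vessel markers, 200 healthy and 27 CCl4 cells, none of 6 members tested reached 2-fold (3.42% of 9643 genes were higher and 7.1% lower), and Ltbp4 was at 0.612 (0.512 to 0.728). Ltbp4 was below the healthy level in all 3 clusters.

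**Figure D4:**
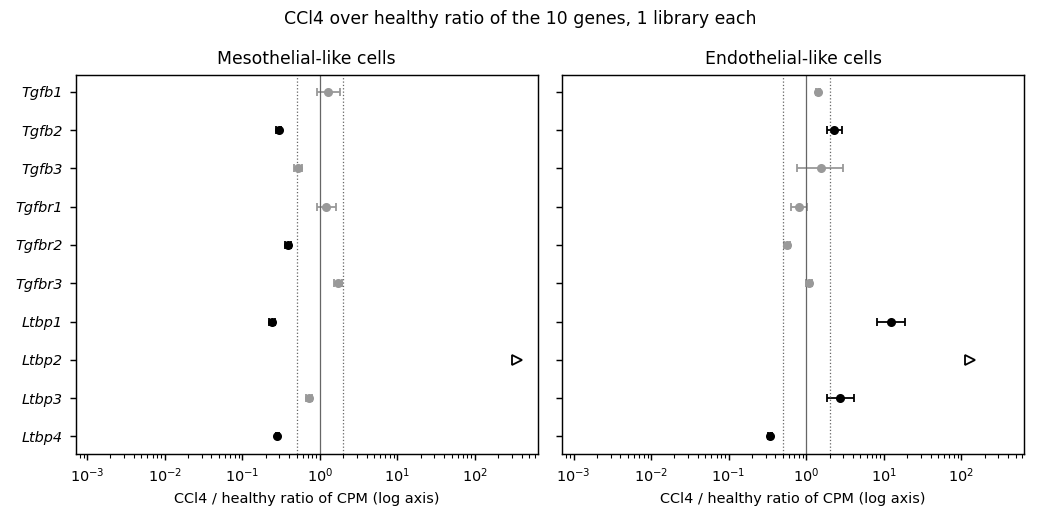
Ratio of the CCl4 to the healthy CPM (log axis) of the 10 members in mesothelial-like and endothelial-like cells, with exact 95% intervals for counting error; black points are at least 2-fold with an interval beyond 1, grey points are not, dotted lines mark 2-fold, and open triangles are lower bounds for Ltbp2, which had 0 healthy UMIs. Ltbp4 lies below 1 in both classes, at 0.284 and 0.341, while Tgfb2 and Ltbp1 lie below 1 in mesothelial-like and above 1 in endothelial-like cells.

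The co-receptors of endothelial cells were among the pathway genes that differed. Of 32 tested in endothelial-like cells, 7 were higher and 3 lower, with a median log2 ratio of 0.33 beside -0.28 for all genes. The lower ones were Eng, or endoglin, at 913 against 2219 CPM (0.411, 0.398 to 0.425), Acvrl1, the type I receptor ALK1, at 35.0 against 74.5 CPM (0.470, 0.395 to 0.557) and Bambi, a decoy receptor, at 15.9 against 69.6 CPM (0.228, 0.176 to 0.291). Eng was also lower within the clusters led by Nts (0.415) and Cytl1 (0.460), and stayed within 2-fold in the cluster led by Ccl21a. The higher ones were Itgb5, the β5 integrin chain, at 18.9 against 1.89 CPM (10.0-fold, 6.73 to 15.1), Fn1, or fibronectin (7.55-fold), Thbs1 (3.20-fold), Tgfbi (2.42-fold), Fbn2 (4.90 against 0 CPM), Col1a1 (212 against 0.298 CPM) and Tagln (34.3 against 2.73 CPM). Collagen markers stood at 4.67% of their mesenchymal-like level in these cells, and the part of carried-over RNA in these 7 was not tested gene by gene.

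Healthy sinusoidal clusters differed in Ltbp4, although the cluster called central here also had portal markers enriched. The portal cluster led by Msr1 had 1047 CPM and the central cluster led by Wnt2 479 CPM (2.18-fold, 2.10 to 2.27), and Ltbp4 was the only one of 8 members tested to reach 2-fold, where 1.54% of 12346 genes were higher and 1.86% lower. Tgfb1 was at 224 CPM in the portal and 317 CPM in the central cluster (0.706, 0.664 to 0.751). The 3 receptors differed by less than counting error. Among pathway genes, Fbn1, or fibrillin-1, the microfibril protein to which latent-binding proteins attach, was higher in the portal cluster at 27.0 against 9.69 CPM (2.79-fold, 2.16 to 3.63), and Tgfbi was lower at 0.0729 of the central level. The Ltbp4 level of the large-vessel cluster was 1302 CPM.

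The mesenchymal-like cells of the CCl4 library were compared with the other named cells of that library. Of the 10 members, 2 were higher, Ltbp1 at 113 against 52.2 CPM (2.17-fold, 2.04 to 2.31) and Ltbp2 at 447 against 195 CPM (2.30-fold, 2.22 to 2.37), and Tgfb1 was lower at 44.5 against 93.9 CPM (0.474, 0.445 to 0.504). The Tgfb1 call was lost under TMM scaling (log2 ratio -0.89 in place of -1.08) and with at least 1000 UMIs per cell (-0.54), and its direction turned with 10 principal components (0.58), where 15 CCl4 cells were endothelial-like. In this comparison 11.7% of 15806 genes were higher and 21.5% lower. Tgfbr1 was at 1.97 (1.79 to 2.17), and it reached 2-fold in 5 of 11 settings planned, up to a log2 ratio of 1.17. The other members were between 0.728 and 1.18. Of 33 pathway genes, 13 were higher and 2 lower, with a median log2 ratio of 0.61 beside -0.16 for all genes. In the latent complex group, Fbn2 (44.5-fold), Itgb5 (10.5-fold) and Fbn1 (4.48-fold) were higher, and Nrros, the anchor of latent TGF-β on myeloid cells, was lower at 0.360 against 28.1 CPM. Of the induced targets, Tgfbi (13.9-fold), Tagln (13.7-fold), Col1a1 (11.8-fold) and Pmepa1, an inhibitor of Smad signaling (10.1-fold), had the largest ratios. Among other receptors, Bambi (5.26-fold) and Eng (2.20-fold) were higher and Cd109 was lower, at 0.264 against 0.789 CPM. Col1a1 was itself among the markers that named the mesenchymal-like class.

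Within the mesenchymal-like cells, 2 clusters differed in Ltbp2 and Tgfb3. The 1613 cells of the first expressed all 10 stellate cell markers and were led by Bco1, Angptl6 and P2ry14, and the 1275 cells of the second were led by Dpep1, Thbs4 and Casq2. Ltbp2 was at 883 CPM in the second and 111 CPM in the first (7.92-fold, 7.60 to 8.26), and Tgfb3 at 90.4 and 23.4 CPM (3.86-fold, 3.50 to 4.26). The other 8 members stayed within 2-fold, from 0.682 for Ltbp4 to 1.55 for Tgfb2. Between these clusters 9.49% of 14088 genes were higher and 4.38% lower in the second. Of the induced targets, Tgfbi was at 171 against 1118 CPM (0.153, 0.147 to 0.159) and Fn1 at 208 against 720 CPM (0.289, 0.279 to 0.300), both lower in the cluster with more Ltbp2. Of the other pathway genes, Fbn2 (3.88-fold) and Acvrl1 (2.68-fold) were higher there and Itgb3 was lower, at 0.607 against 12.9 CPM, so that 2 of 33 were higher and 3 lower. An unnamed cluster of 506 CCl4 cells with 8 of 12 mesenchymal markers and a median of 2611 UMIs had 856 CPM of Ltbp2. A further unnamed cluster of 671 CCl4 cells, led by Serpinb2, Enpp2 and Fndc1, had 45.4 CPM of Ltbp2 and 6.77 CPM of Ltbp1 beside 84.2 CPM of Tgfb2.

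**Figure D5:**
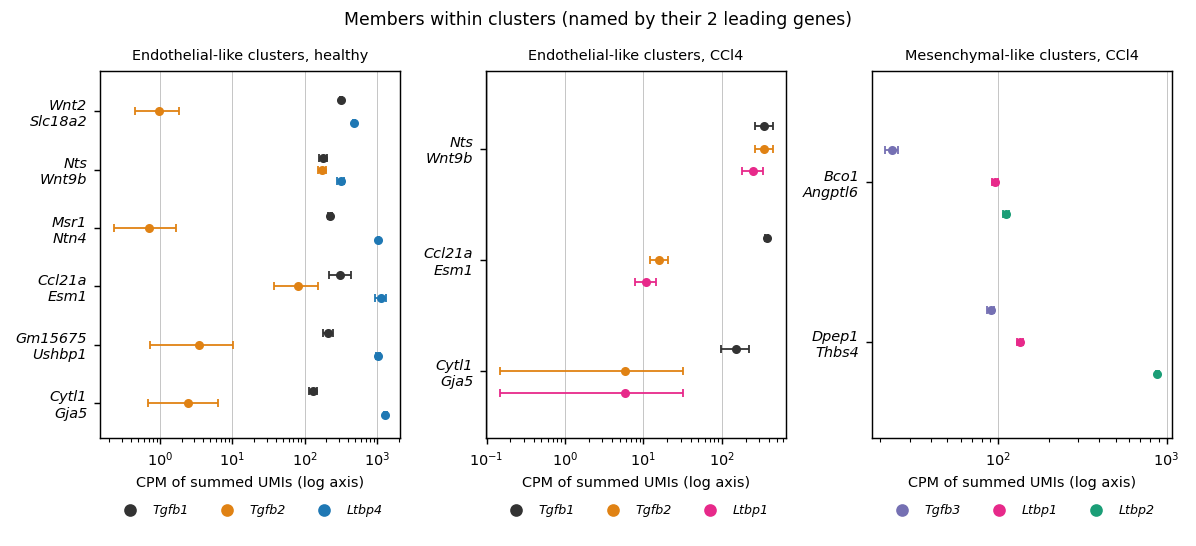
Levels of selected members (CPM of summed UMIs, log axis) within clusters of at least 15 cells, named by their 2 leading genes, with exact 95% Poisson intervals; the panels show endothelial-like clusters of the healthy and of the CCl4 library and mesenchymal-like clusters of the CCl4 library. Tgfb2 stands at 175 and 345 CPM in the cluster led by Nts and Wnt9b, and Ltbp2 at 883 CPM in the cluster led by Dpep1 against 111 CPM in the one led by Bco1.

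The genes whose level followed each member most closely were taken from 9521 genes over 12 sums, 1 for each class and library with at least 50 cells, by Pearson's r of log2(CPM + 1). The sums share 2 libraries, so r is a description. The closest gene was Abcg1 for Tgfb1 (r = 0.97), Zfp651 for Tgfb2 (0.97), Pkia for Tgfb3 (0.97), Erp29 for Tgfbr1 (0.94), Mapre2 for Tgfbr2 (0.93) and Sntb2 for Tgfbr3 (0.96). Among the latent-binding proteins it was Foxf1, a mesenchymal transcription factor, for Ltbp1 (0.96), Pdgfra, a growth factor receptor of fibroblasts, for Ltbp2 (0.98), P3h4 for Ltbp3 (0.97) and Bace2 for Ltbp4 (0.98). Igfbp3 came next for Ltbp2 (0.98).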

How the data were processed

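Single-cell libraries were made by the 10x Genomics 3′ protocol from enzymatically digested livers. The deposited matrices hold raw UMI counts per gene and cell, made by the authors with Cell Ranger 3.1.0 (healthy) and 6.0.1 (CCl4) per the file headers. The submitters' processing notes name GRCh38 and mm10 without a role. From these counts, cells with at least 500 UMIs, 200 genes and at most 30% mitochondrial UMIs were kept. Doublets were scored with Scrublet (scanpy 1.11.5). The highest-scoring cells, 277 healthy and 487 CCl4, were removed at a preset rate of 0.8% per 1000 cells. After that, 30 principal components of 2000 variable genes were clustered (Leiden, resolution 1). A cluster was named from at least 3 enriched markers of a class. A cluster with many UMIs and markers of 2 classes stayed unnamed, a rule set after seeing the data. UMIs were summed per class and library, and ratios carry exact conditional binomial intervals. Genes with under 10 UMIs in a comparison were not tested. Computations were checked on simulated data. edgeR 4.0.16 gave scaling factors for an alternative. All 10 members are named. Other pathway genes were named up to 4 a group, those with the largest ratios among those called. The members, gene lists and comparisons were chosen with earlier results of these data known. Promoter sequences are from RefSeq, where 8 of 10 members matched. Each library holds 51122846 (healthy) and 97611831 (CCl4) UMIs. Some genes of the pathway and leading-gene lists are not reported here by name.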

Additional observations from a re-analysis of the deposited data

Results flagged for a closer look

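Of the members, 3 had ratios of CCl4 to healthy CPM that lay on opposite sides of 1 in mesothelial-like and endothelial-like cells, with both 95% intervals beyond 1. Ltbp1 was at 0.240 of the healthy level in mesothelial-like and 12.2 times it in endothelial-like cells, so that the second ratio was 50.9 times the first. Of the 91 Ltbp1 UMIs in CCl4 endothelial-like cells, 45 were in 11 of the 17 cells of the cluster led by Nts. Carried-over mesenchymal RNA could account for 22.6 of the 91. For Tgfb2 the ratios were 0.294 and 2.30 (7.84 times), and for Ltbp3 0.727 and 2.75 (3.79 times). With 1 library per group the difference between the classes was not tested. In the endothelial-like cluster led by Ccl21a, which held 594 of the 644 CCl4 cells, the ratios of all 3 genes were below 1. Tgfb2 and Ltbp1 were called lower there, and Ltbp3 was not. The 31 healthy cells of that cluster had 9 Tgfb2 UMIs, in 2 cells. The endothelial-like call of Tgfb2 held in 8 of 11 settings planned and that of Ltbp3 in 10.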

How the results depend on the processing

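Of 122 counts of members recomputed under 12 planned settings, 116 stayed within 1.5 times the reported count, and of 330 log2 ratios 252 stayed within the counting interval. The 1 member lower in mesenchymal-like than in other CCl4 cells (Tgfb1) became 0 under TMM factors, with at least 1000 UMIs per cell and with 10 principal components, which also left 1 member higher in place of 2, turned the log2 ratio of Tgfb1 to 0.58 and put 5 members highest in CCl4 mesothelial-like cells in place of 3. With 10 components only 15 CCl4 cells were endothelial-like, and with at least 1000 UMIs per cell 1570 were mesothelial-like in place of 926. By thinned shares of cells with a UMI, 2 members in place of 4 were highest in CCl4 endothelial-like cells.

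Alternatives chosen after seeing the data changed more. Counting the cluster with markers of 2 classes as mesenchymal-like gave 0 members lower, and adding the low-UMI cluster gave 4 members with a 2-fold range over mesenchymal-like clusters in place of 2. Within endothelial-like clusters the 4 higher and 1 lower members became 0 and 5 (Ccl21a), 1 and 0 (Nts) and 0 and 0 (Cytl1), and in the Ccl21a cluster the log2 ratios of Tgfb2, Ltbp1 and Ltbp3 were -2.37, -3.08 and -1.61, with Ltbp3 not called. Subtracting carried-over RNA left 2 members higher in endothelial-like cells (Tgfb2 and Ltbp1). The causes of these differences were not tested beyond the choice of cells or scaling itself. Ltbp2 (higher) and Tgfb2, Ltbp1 and Ltbp4 (lower) in mesothelial-like cells kept their calls under all 11 settings planned for that comparison, and Tgfbr2 under 10. In endothelial-like cells the Tgfb2 call was kept under 8 of 11 and the Ltbp3 call under 10, and Tgfbr1 in mesenchymal-like cells was called under 5. No paired analysis was possible because each group is 1 library, and for the same reason no replicate could be left out. Depth limits small classes: 3 UMIs in the 61 plasmacytoid dendritic-like cells equal 7.92 CPM.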
